A study of Saccharomyces cerevisiae with 11 samples.

Results

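The nuclear genes of the mitochondrial respiratory chain and of ATP synthase were followed through 11 maps of yeast transcript leaders, the untranslated stretch that runs from the cap of an mRNA to the first codon of its protein. They were chosen by systematic name as the subunits of ATP synthase with its inhibitor INH1 (14 genes), complex II (4 genes), complex III (9 genes), cytochrome c (2 genes) and complex IV (9 genes), which makes 38 genes. Of these, 31 had a leader call in at least 1 library, out of 4550 nuclear open reading frames (ORFs) with a call in the whole series. The RefSeq table of assembly R64 holds 6021 protein-coding genes, of which 75.5% had a call.

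Complex II oxidises succinate and passes its electrons to ubiquinone, complex III passes them on to cytochrome c, and complex IV hands them to oxygen. Complexes III and IV pump protons across the inner mitochondrial membrane as they work, and ATP synthase lets the protons flow back through a rotor that drives ATP production. Budding yeast ferments glucose even in air, and many of these genes are known to be repressed by glucose and activated by the Hap transcription factors. A ribosome normally scans the leader from the cap to the start codon, so the length of the leader is the distance it has to travel.

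Leaders were mapped by TL-seq, which ligates an adaptor to 5′ ends after tobacco acid pyrophosphatase has removed the cap. The libraries were 2 biological replicates labelled S288C, the reference laboratory strain, 1 library of Sigma 1278b with the enzyme, and 1 Sigma 1278b control without it. TATL-seq did the same for mRNA sedimented through a polysome gradient, with 1 library for each of 7 fractions, from cells labelled BY4742. All cultures grew to mid-log phase at 30 °C in YPAD, a rich medium with 2% glucose. Per the growth protocol, BY4742, an S288C derivative, was of mating type α with deletions in his3, leu2, lys2 and ura3, and Sigma 1278b was of mating type a with mutations in his3, leu2, trp1 and ura3. Separate cultures are stated for the S288C replicates only, and the labels do not say which fractions were light or heavy.

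Each library gave 1 length per gene in nucleotides (nt) and no read count, so the depth behind a call is unknown and no abundance can be read from it. The S288C replicates held calls for 3561 and 3442 nuclear ORFs, Sigma for 1883, its control for 204 and each fraction for 2081 to 2483. The S288C libraries were sequenced on a HiSeq and the 9 others on a Genome Analyzer II, so in TL-seq the effects of strain and sequencer cannot be told apart. Of the 4 genes carrying deletions in BY4742, the strain the growth protocol names, HIS3 had a call in both S288C replicates, and the others had none in any library. In S288C, 3 of 4 α-specific and 0 of 6 a-specific genes had a call. In Sigma, counting a call with or without the enzyme, the numbers were 0 of 4 and 3 of 6. The fractions, labelled as an α strain, had calls on 2 of 4 α-specific genes but also on 4 of 6 a-specific genes. Of the α-specific genes, MF(ALPHA)2 was called in 6 fractions and STE3 in 1. Of the a-specific genes, the α-factor receptor gene STE2 was called in all 7 fractions, AGA2 in 5, MFA2 in 3 and MFA1 in 2. The a-specific genes STE6 and BAR1 had 0 fraction calls. These libraries are therefore called the fractions labelled BY4742, and the part of these marker calls in the results below was not tested.

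A call in at least 1 library was found for 31 of the 38 genes, or 81.6%, beside 75.5% of all protein-coding genes. No library held a call for 7 of the 38 genes: ATP1, ATP2 and ATP5, for the α and β subunits of the catalytic head of ATP synthase and the subunit that ties that head to the stator, CYT1, for cytochrome c1, and COX4, COX6 and COX8, for subunits of complex IV. At the other end, ATP14, a stator subunit gene, and QCR10, a small subunit gene of complex III, had a call in all 11 libraries. The share of all ORFs with a call in all 11 was not counted. Whether a missing call came from expression, depth or filtering was not tested.

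Of the 31 members with a call, 30 had a call in at least 1 fraction (79.9% of all ORFs), 25 in at least 5 fractions (45.3% of all ORFs) and 18 in all 7 (26.8% of all ORFs). In S288C TL-seq, 18 of the 31 had a call in both replicates (69.1% of all ORFs), 7 in 1 replicate and 6 in neither. Those 6 were the complex III genes QCR6, QCR7 and QCR9, ATP17, for a membrane subunit of ATP synthase, CYC7 and COX5B. Calls in a fraction but in neither S288C replicate thus concerned 6 of 30 members, where the share of all ORFs was 18.0%. QCR7 and COX5B were called in all 7 fractions without a call in any TL-seq library. COX13, for a subunit of complex IV, was the reverse case, with 104 nt in S288C replicate 2 and no other call. In Sigma 14 of the 31 had a call (41.4% of all ORFs).

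**Figure D1:**
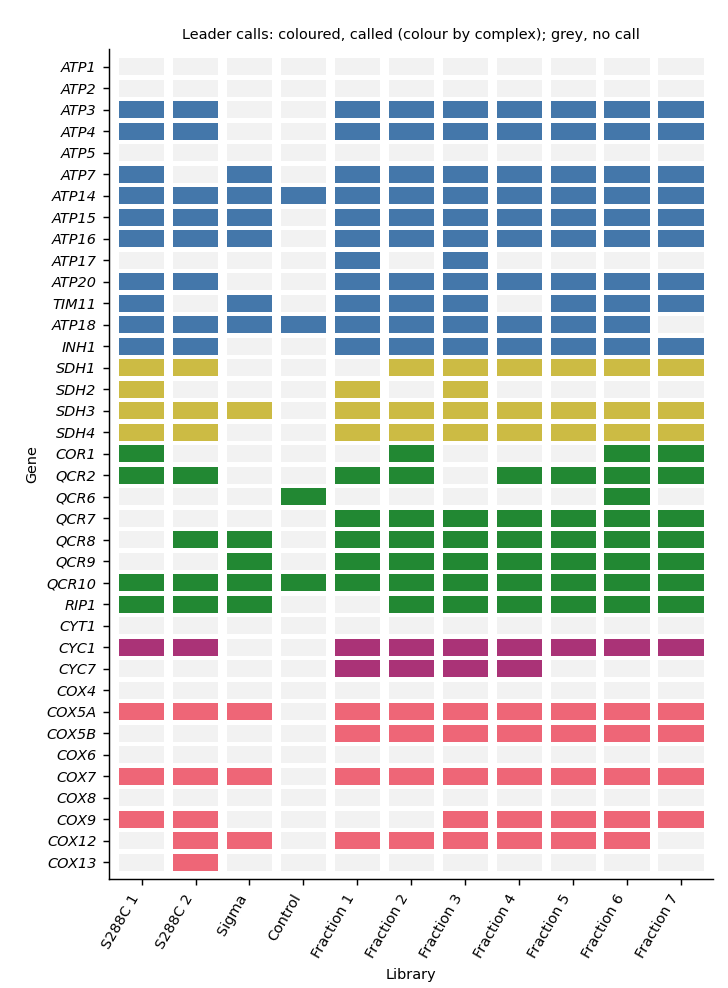
Presence of a leader call for each of the 38 genes (rows, coloured by complex) in each of the 11 libraries (columns); grey cells have no call. The 7 rows without colour are ATP1, ATP2, ATP5, CYT1, COX4, COX6 and COX8, while ATP14 and QCR10 are coloured in all 11 columns.

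Leaders of the 18 members called in both S288C replicates ran from 22 nt for ATP15 to 164 nt for INH1. Their median was 54.5 nt (quartiles 44.75 and 61.9 nt), beside 41.5 nt over all 3144 ORFs called in both. The replicates gave the same length for 17 of the 18 members (76.2% of all ORFs). QCR10 was the exception, with 67 and 56 nt. No member had a leader under 12 nt (7.63% of all ORFs), and 3 reached 100 nt (15.1% of all ORFs).

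In ATP synthase, the leader was shortest for a subunit of the rotor and longest for the inhibitor. ATP15 (YPL271W), for the small ε subunit of the central stalk, had 22 nt in both S288C replicates, and ATP16 (YDL004W), for its δ subunit, had 44 nt. ATP3 (YBR039W, chromosome II, 315575 to 316510 in assembly R64), for the γ subunit that turns inside the head, had 88 nt in both. INH1 (YDL181W, chromosome IV, 135179 to 135436), for the peptide that blocks ATP hydrolysis by the enzyme, had 164 nt in both. The stator subunit genes ATP4 and ATP14 had 58 and 40 nt in each replicate, and ATP7, also of the stator, had 72 nt in replicate 1 only. ATP18 and ATP20, for small membrane subunits, had 51 and 50 nt in each replicate, and TIM11, for the subunit e that helps the enzyme form dimers, had 45 nt in replicate 1 only.

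Complex II held long and short leaders side by side. SDH1 (YKL148C, chromosome XI, 169207 to 171129), for the flavoprotein that oxidises succinate, had 153 nt in both replicates, and SDH4, for a membrane anchor, had 103 nt in both. SDH3, for the other anchor, had 28 nt in both, and the iron-sulfur subunit gene SDH2 had 45 nt in replicate 1 only. In complex III, QCR2, for a core subunit, had 61 nt and RIP1, for the Rieske iron-sulfur protein, 62 nt in both replicates. COR1, for the other core subunit, had 98 nt in replicate 1 and QCR8, for a small subunit, 67 nt in replicate 2. In complex IV, COX5A had 35 nt, COX7 58 nt and COX9 47 nt in both replicates, and COX12 had 27 nt in replicate 2 only. CYC1, for the main cytochrome c, had 47 nt in both replicates. The medians over members with both replicates were 50.5 nt in ATP synthase (n = 8), 103 nt in complex II (n = 3), 61.5 nt in complex III (n = 3) and 47 nt in complex IV (n = 3).

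**Figure D2:**
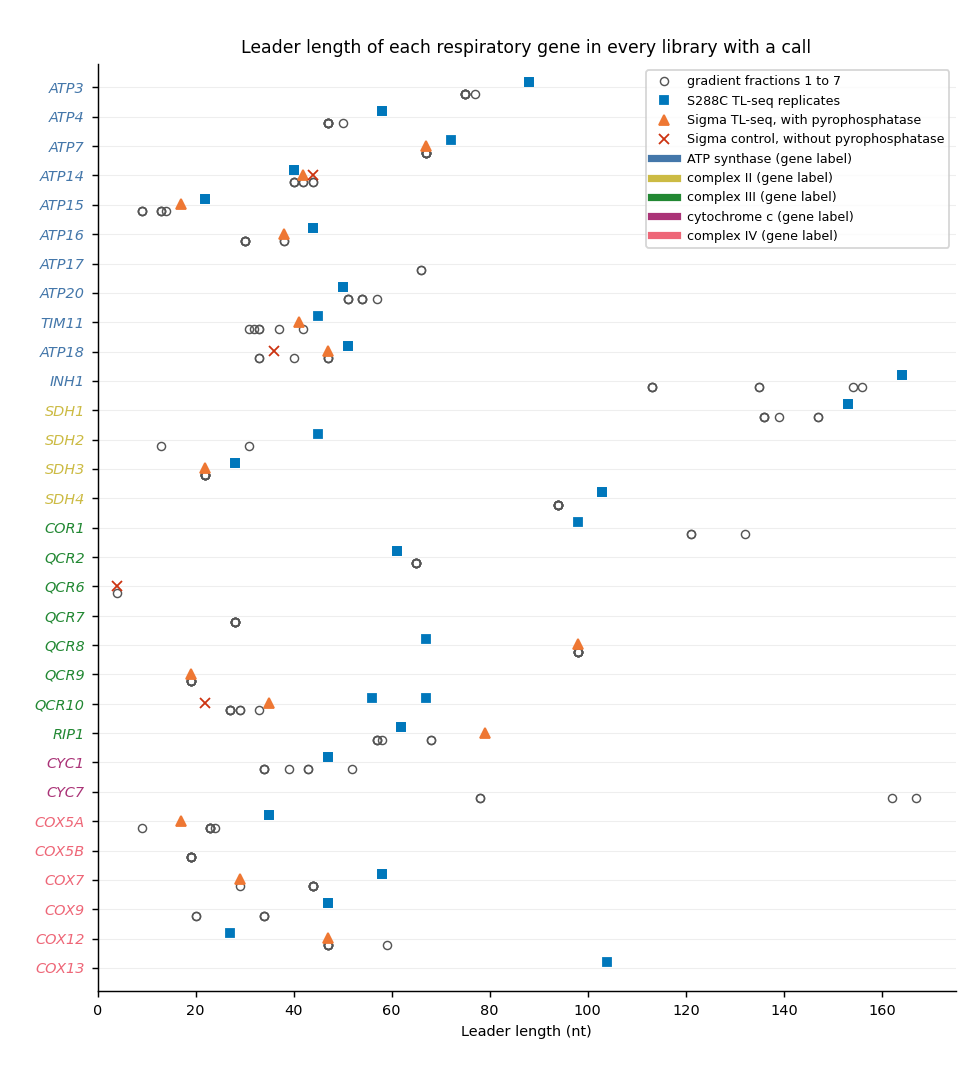
Leader length in nt (x axis) of the 31 genes with a call (rows, label coloured by complex), with 1 symbol per library. Blue squares of S288C TL-seq lie to the right of the open circles of the fractions for most genes, and Sigma triangles often coincide with a circle, as for ATP7 at 67 nt, QCR8 at 98 nt and QCR9 at 19 nt.

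The fractions labelled BY4742 were set against S288C TL-seq to ask whether both methods placed the 5′ end of a gene at the same distance. Leaders of most members were somewhat shorter in the gradient: the median over the fractions lay below both replicates in 15 of 18 members (65.6% of all ORFs) and above both in 3 (24.6% of all ORFs). A member was called different when its S288C replicates were no more than 10 nt apart and the fraction median was 10 nt or more below the lower replicate or above the higher. Of 17 members compared, 8 were called shorter (31.4% of all ORFs) and 0 longer (13.0% of all ORFs). The median difference was −10 nt over the 18 members called in both replicates and in a fraction, beside −5 nt over 2553 ORFs.

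INH1 differed most among the 8. It had 113, 156, 113, 113, 135, 154 and 135 nt in fractions 1 to 7, a median of 135 nt, which was 29 nt below both replicates. SDH1 had no call in fraction 1 and then 136, 136, 147, 139, 147 and 136 nt in fractions 2 to 7, all below its 153 nt in S288C. ATP3 stood at 75 nt in all fractions but fraction 6, where it had 77 nt, against 88 nt in S288C. ATP4 stood at 47 nt in all but fraction 3, where it had 50 nt, against 58 nt. ATP16 kept 30 nt through the first 5 fractions and had 38 nt in the last 2, against 44 nt. The other 3 were genes of complex IV, COX5A, COX7 and COX9, with medians 12, 14 and 13 nt below S288C.

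Without a minimum distance the direction was the same for more members. In 13 of 18 every fraction with a call lay below both replicates (56.6% of all ORFs called in both replicates and at least 5 fractions), and in 2 of 18 every fraction lay above them (16.0% of all ORFs). Those 2 were QCR2, at 65 nt in each of its 6 fractions against 61 nt, and ATP20, at 51 to 57 nt against 50 nt. Members whose call missed the 10 nt rule by little included SDH4, at 94 nt in all 7 fractions against 103 nt, ATP15, at 9 to 14 nt against 22 nt, and SDH3, at 22 nt in all 7 against 28 nt. ATP18, at 33 to 47 nt against 51 nt, and CYC1, whose 34 to 52 nt lay on both sides of its 47 nt, also missed it. QCR10, left out of the rule by the 11 nt between its replicates, had 29, 33, 27, 27, 27, 29 and 27 nt in the fractions, all below both replicates. Members longer in the gradient entered where a single S288C replicate was used: QCR8 and COX12 against replicate 2 (2 longer and 9 shorter of 20), and COR1 against replicate 1 (1 longer and 11 shorter of 22). When the −5 nt median of all ORFs was subtracted, 2 of the 8 calls were left, INH1 at −24 nt and SDH1 at −10.5 nt. The counts with a single replicate and after subtraction are given for members only, without the share of all ORFs. Method, sequencer and culture changed together in this comparison and cannot be told apart. The fractions had calls on 2 of 4 α-specific and on 4 of 6 a-specific genes. Whether strain changed as well was not tested.

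**Figure D3:**
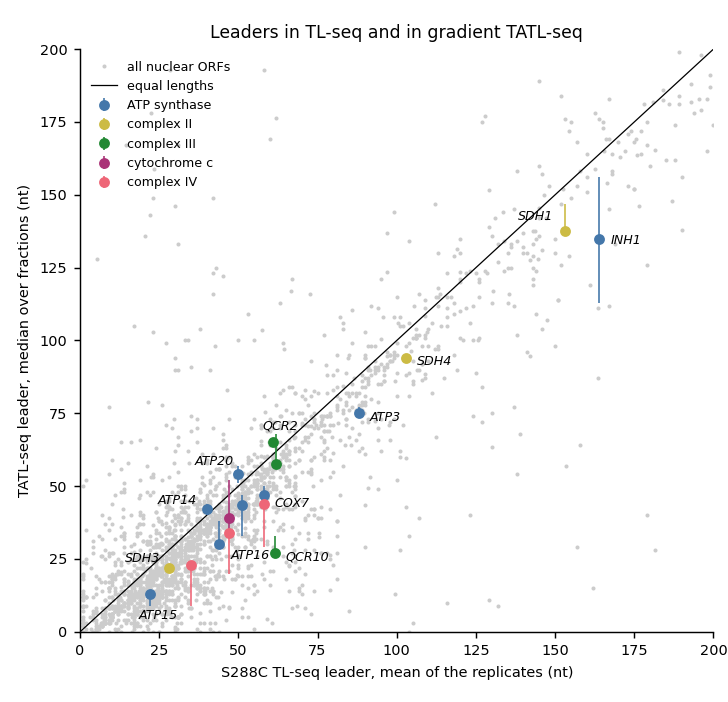
Median leader over the fractions (y axis, nt) against the mean of the S288C TL-seq replicates (x axis, nt) for 18 members, with bars from the lowest to the highest fraction, and for all nuclear ORFs up to 200 nt in grey; the line marks equal lengths. Of the 18 members, 15 lie below the line, and QCR2, ATP20 and ATP14 lie above it.

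The exact positions differed between the S288C replicates and all other libraries. Of the 17 members with a single S288C length, only ATP14, at 40 nt, had that length in any fraction (5.06% of all ORFs). Sigma gave a length also found in a fraction for 9 of 14 members (64.1% of all ORFs). QCR8 (YJL166W, chromosome X, 106434 to 106718) showed this split plainly, with 98 nt in Sigma and in each of the 7 fractions but 67 nt in S288C replicate 2. COX12 had 47 nt in Sigma and in 5 fractions and 59 nt in fraction 3, against 27 nt in S288C replicate 2. ATP7 had 67 nt in Sigma and all 7 fractions, against 72 nt in S288C replicate 1. QCR9, with no S288C call, had 19 nt in Sigma and all 7 fractions. The S288C replicates differ from all other libraries in sequencer and also in that sacCer3 is named as the genome build for the 9 others only. They also had calls on 0 of 6 a-specific genes, against 3 of 6 in Sigma, with or without the enzyme, and 4 of 6 in the fractions. On α-specific genes the calls were 3 of 4 in S288C, 0 of 4 in Sigma, again with or without the enzyme, and 2 of 4 in the fractions. Whether strain differs too, and what lies behind the split, was not tested.

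Sigma was compared with S288C to ask whether the strains start these mRNAs at different places. RIP1 had a longer leader in Sigma, and COX5A and COX7 had shorter ones. By the same rule, applied to the 1 Sigma library, these 3 of 8 members were called different (40.9% of all ORFs), 1 longer (13.2% of all ORFs) and 2 shorter (27.6% of all ORFs). The other 5, ATP14, ATP15, ATP16, ATP18 and SDH3, lay within 6 nt of S288C. A single Sigma library allows no test.

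COX7 (YMR256C, chromosome XIII, 778945 to 779127), for a small membrane subunit of complex IV, had 58 nt in both S288C replicates, 29 nt in Sigma, 29 nt in fraction 6 and 44 nt in all remaining fractions. The Sigma leader was thus 29 nt below S288C and 15 nt below the median of the fractions, yet equal to 1 of them. COX5A (YNL052W, chromosome XIV, 531725 to 532186) had 35 nt in both replicates and 17 nt in Sigma, while the gradient gave 9 nt in fraction 1, 24 nt in fraction 6 and 23 nt elsewhere. Against the fractions its Sigma leader was only 6 nt shorter, which did not reach 10 nt. RIP1 (YEL024W, chromosome V, 107260 to 107907) had 62 nt in both replicates and 79 nt in Sigma. In fractions 2 to 7 it had 57, 58, 57, 68, 68 and 57 nt, so Sigma lay above every other library.

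Against the median of the fractions, which shared the sequencer with Sigma, 2 of 14 members were called different (19.8% of all ORFs). With calls on 2 of 4 α-specific and on 4 of 6 a-specific genes in the fractions, this may or may not be a comparison of strains, which was not tested. RIP1 was 21.5 nt longer (10.5% of all ORFs were longer) and COX7 15 nt shorter (9.39% of all ORFs were shorter). The median difference of Sigma from the fractions was 0 nt over the 14 members and over 1789 ORFs. QCR10 had 35 nt in Sigma against 67 and 56 nt in S288C and 27 to 33 nt in the fractions. When Sigma was set against S288C replicate 2 alone, 6 of 11 members differed by at least 10 nt, since QCR8 and COX12, longer in Sigma, and QCR10, shorter, then entered. This count is given for members only. By the rule with both replicates, 40.9% of all ORFs differed.

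The Sigma control without pyrophosphatase should hold few capped ends. It gave a call for 4 of the 31 members (4.48% of all ORFs), ATP14, ATP18, QCR6 and QCR10, and for 3 of the 14 called with the enzyme (9.08% of all ORFs). ATP14 had 44 nt without and 42 nt with the enzyme, and 40 to 44 nt in the fractions. ATP18 had 36 nt without and 47 nt with it. QCR10 had 22 nt without and 35 nt with it. QCR6, for an acidic subunit of complex III, had 4 nt in the control, 4 nt in fraction 6 and no call elsewhere, so its single fraction length is also that of an end found without cap removal. Of the 3 members called in both Sigma libraries, only ATP14 lay within 10 nt (64.9% of all ORFs), while all 4 control calls lay within 10 nt of the fraction median (74.2% of all ORFs).

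Within the gradient, the question was whether the leader of a gene changed from fraction to fraction. For 8 of the 25 members called in at least 5 fractions it did not change at all (32.8% of all ORFs): ATP7, SDH3, SDH4, QCR2, QCR7, QCR8, QCR9 and COX5B. QCR7, for a small subunit of complex III, had 28 nt in each of the 7, and COX5B 19 nt. For 10 of the 25 the range reached 10 nt (30.9% of all ORFs), and the median range was 6 nt over the members and 4 nt over 2062 ORFs. The 4 complex IV genes COX5A, COX7, COX9 and COX12 were among these 10, with ranges of 12 to 15 nt.

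The same lengths often recurred between fractions. Among the 25 members, 6 had 2 lengths, 8 had 3, 2 had 4 and TIM11 had 5. These counts are given for members only, without the share of all ORFs. COX9 was first called in fraction 3 and stood at 34 nt up to fraction 5, then at 20 nt in the last 2 fractions. ATP18 gave 47, 47, 33, 33, 40 and 47 nt over the first 6 fractions and was not called in the last. INH1 had the widest range of the 25, 43 nt, with 113 nt in 3 fractions, 135 nt in 2 and 154 and 156 nt in the other two. Other members moved by less than 10 nt. ATP14 gave 40, 44, 40, 40, 42, 42 and 44 nt over the 7 fractions, ATP20 gave 51, 54, 51, 54, 57, 51 and 54 nt, and ATP15 gave 14, 13, 9, 9, 13, 13 and 9 nt. In contrast CYC1, with a range of 18 nt, had 39, 34, 43, 43, 52, 34 and 34 nt in fractions 1 to 7, on both sides of its 47 nt in S288C. TIM11, not called in fraction 4, gave 33, 33, 42, 37, 31 and 32 nt over the other 6, beside 41 nt in Sigma.

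A steady change with fraction number could hardly be tested in these data. Spearman's correlation was computed for the 795 ORFs that had a call in every fraction and at least 2 different lengths, with an exact two-sided p over all orders of the fractions. The smallest p that 7 distinct lengths can give is 0.000397, which for a single ORF adjusts to 0.315 over the 795 (Benjamini-Hochberg), so 0 adjusted calls say nothing about single members. Repeated lengths raise that limit further, and for 4 of the 11 members tested, ATP3, ATP4, ATP16 and COX7, no order of the fractions could give a p under 0.05. Of the 795 ORFs, 36 (4.53%) had an unadjusted p under 0.05 and 0 passed after adjustment (0.0%), and the 36 held no member. ATP16, with its 2 longer leaders in fractions 6 and 7, was at the limit of its pattern (rho 0.79, exact permutation p = 0.0952, the smallest it can give). With 1 library per fraction, a shift between fractions cannot be told apart from the variation of single libraries.

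**Figure D4:**
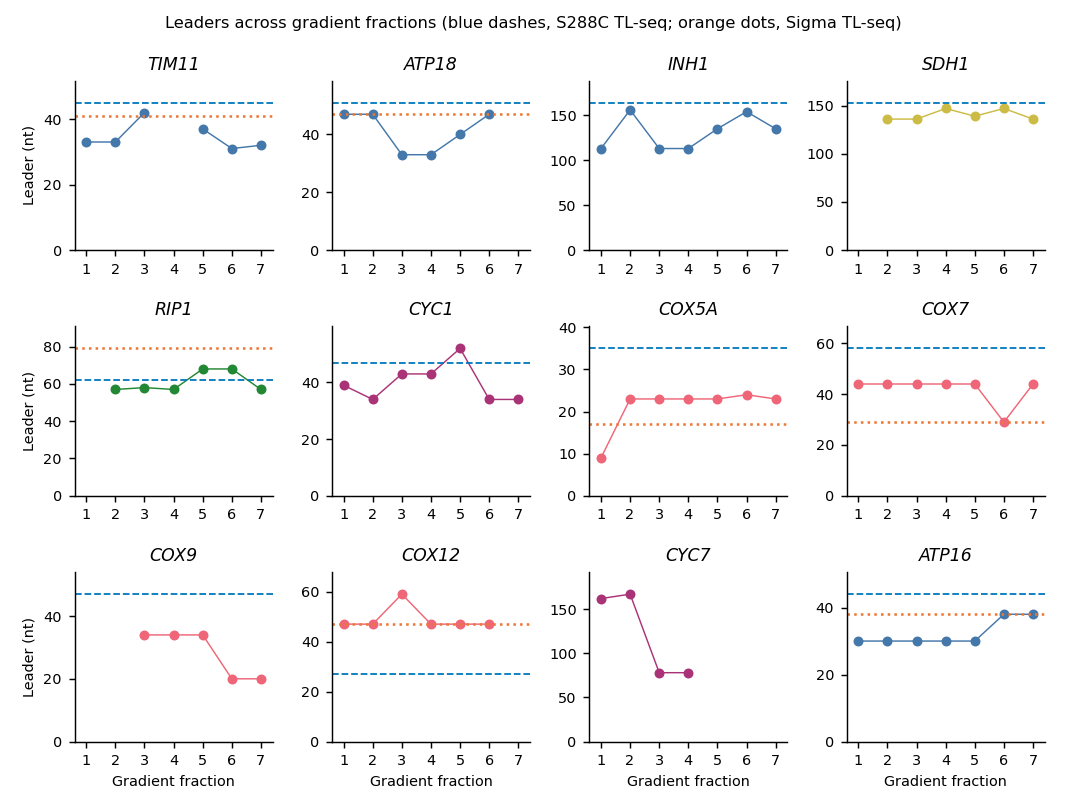
Leader length (y axis, nt, from 0) in gradient fractions 1 to 7 (x axis) for the 10 members with a range of at least 10 nt, and for CYC7 and ATP16; blue dashes mark the mean of the S288C TL-seq replicates with a call, orange dots the Sigma length. INH1 runs from 113 to 156 nt below its S288C line at 164 nt, and COX7 meets its Sigma line at 29 nt in fraction 6 only.

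The paralog pairs used under different oxygen supply did not behave alike in these maps. COX5A and COX5B encode alternative forms of the same complex IV subunit, the first used in air and the second favoured when oxygen is scarce. COX5B (YIL111W, chromosome IX, 155222 to 155765) had 19 nt in all 7 fractions and no TL-seq call, while COX5A had calls in 10 libraries, with 23 nt as its fraction median. CYC1 (YJR048W, chromosome X, 526335 to 526664) and CYC7 (YEL039C, chromosome V, 79636 to 79977) encode the iso-forms of cytochrome c, CYC7 being the one linked to low oxygen. CYC7 was called in fractions 1 to 4 only, at 162, 167, 78 and 78 nt. Its 167 nt in fraction 2 was the longest leader of any member, and its range of 89 nt came from 4 fractions, too few for the rule used above. CYC1 lay between 34 and 52 nt in the fractions, so the calls of the pair did not overlap.

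COR1 and SDH2 also had few calls. COR1 gave 132 nt in fraction 2 and 121 nt in the last 2 fractions, above its 98 nt in S288C replicate 1. SDH2 gave 13 nt in fraction 1 and 31 nt in fraction 3, below its 45 nt in S288C replicate 1. ATP17 had 66 nt in fractions 1 and 3 and no other call.

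The called members are small genes, with a median span of 390 nt from start to stop codon (introns included) against 1200 nt over the 4550 ORFs. Their upstream neighbours lay a median of 457 nt away, beside 430 nt for all ORFs, and were divergent in 12 of 31 cases (38.7%, beside 48.9%). In no called member did the longest leader reach the neighbouring gene, as it did for 0.968% of all ORFs with a leader. The closest approach was TIM11, where 141 nt remained. Of the 7 genes with no call, COX6 and ATP2 had the shortest distances to an annotated upstream gene, 59 and 130 nt, and the 5 others had 269 to 865 nt.

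Genes that assemble or regulate the respiratory chain, such as copper chaperones, haem synthesis enzymes and the HAP activator genes, were counted for comparison. The list also held NADH dehydrogenase genes, which are enzymes of the chain. Of 46 genes 41 had a call (75.5% of all protein-coding genes). Of the 41, 17 had calls in at least 5 fractions (45.3% of all ORFs) and 28 in both S288C replicates (69.1% of all ORFs). Their median S288C leader was 48 nt, beside 41.5 nt over all ORFs. By the rules above, 7 of 19 were shorter in the fractions than in S288C (31.4% of all ORFs) and 1 longer (13.0% of all ORFs). In Sigma 5 of 9 were shorter (27.6% of all ORFs) and 0 longer (13.2% of all ORFs). A range over the fractions of at least 10 nt was found in 6 of 17 (30.9% of all ORFs). None of the 41 was called in the control (4.48% of all ORFs). The subunit genes thus had more members with calls in at least 5 fractions, 25 of 31, and a lower number with calls in both S288C replicates, 18 of 31; these differences were not tested.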

How the data were processed

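TL-seq and TATL-seq libraries were aligned with Bowtie, per the submitters' processing notes, which give the genome build sacCer3 for the 9 libraries other than S288C TL-seq and no version. The authors deposited transcript leader lengths in nt, 1 per gene, without reads; no source used here gives the annotation, read minimum or calling rule, and whether introns before the start codon are counted is unknown. All 38 genes matched the RefSeq table of assembly R64, the source of symbols, coordinates and neighbours.

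Groups followed the labels. Lengths were compared by the 10 nt rule described with each result, and trends by exact permutation of Spearman's rho (Python 3.11.15, pandas 2.3.3, numpy 2.4.6), after tests on simulated data. Every member is named; non-members are named only as neighbours or strain markers. Members and lists were chosen with earlier results of these data known. Names other than nuclear ORFs (58) were left out. The S288C replicates, equal for 76.2% of ORFs, were kept as 2 samples. Planned counts of upstream start codons, CCAAT motifs and 5′ end bases needed sequence and were not analysed here. Alternatives were other distances, libraries and minimum fractions.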

Additional observations from a re-analysis of the deposited data

How the results depend on the processing

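The median S288C leader of members, 54.5 nt (n = 18), was 39.5 nt in Sigma (n = 14) and 43.75 nt by the fraction medians (n = 30). Over all ORFs the medians were 41.5 nt in S288C, 33 nt in Sigma and 39 nt by the fraction medians. The genes with a call differ between these libraries. In S288C the member median was 51 nt over members with replicates within 10 nt (n = 17), and 54.5 to 56 nt without 1 replicate. For Sigma against S288C, 3 of 8 members differed, 6 at a distance of 5 nt and 1 at 20 nt, and 4 to 6 of 11 without 1 replicate. For the fractions against S288C, 8 of 17 differed, 13 at 5 nt, 1 at 20 nt and 2 after subtraction of the median difference. Without replicate 1, 11 of 20 differed (2 longer, 9 shorter), and without replicate 2, 12 of 22 (1 longer, 11 shorter). In 15 of 18 every fraction lay outside both replicates, a measure chosen after seeing the data. A range of at least 10 nt was found in 10 of 25 members, in 4 of 18 called in all 7 fractions and in 1 at 20 nt, and in 7 to 10 with 1 fraction left out. Counts at these other settings are given for members only, without the share of all ORFs, and so describe no feature particular to the members. Members with a trend after adjustment numbered 0 with any 1 fraction left out and 0 by Kendall's tau. At an unadjusted exact p under 0.05 there were 28 of 795 ORFs and 0 members by Kendall's tau, from 12 of 942 ORFs (without fraction 1) to 45 of 811 (without fraction 2), where 1 member, ATP14, entered (rho 0.93, exact permutation p = 0.0333, adjusted p = 0.53). The control lay within 20 nt of Sigma for 3 of 3 members, against 1 at 10 nt. None of the differences called for single members turned its direction, but most of these settings could not turn it. The S288C replicates were equal for each of these members, and the subtracted median of −5 nt was smaller than the 10 nt distance. Only the comparison of Sigma with the fraction medians, made for RIP1, COX5A and COX7, could have turned a direction. The cause of the shifts in the counts was not tested. No paired analysis was possible because the groups share no replicate numbers beyond 1, and fractions carry fraction numbers. Alternatives for upstream start codons, motifs and 5′ end bases were not run. Depth is unknown, so its limits cannot be given.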

Other observations

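Some members stand next to genes that also had leader calls. CYC1 is divergent from ANB1, for a form of the translation factor eIF5A linked to low oxygen, which had 40.5 nt in S288C and 31 nt in the fractions, beside 47 and 39 nt for CYC1; 953 nt separate their start codons. COX9 is divergent from IDP1, for mitochondrial isocitrate dehydrogenase, with 32.5 nt in S288C and 24 nt in the fractions, beside 47 and 34 nt for COX9. INH1 follows LYS20, for a lysine synthesis enzyme, whose leader was 27 nt in S288C and 34 nt in fraction 7, its only fraction call. QCR8 follows the sterol pathway gene ERG20, with 57 and 50 nt. QCR7, at 28 nt in every fraction, follows APA2, whose leader was 5.5 nt in S288C and 128 nt in the fractions. These are values of single genes, and no relation between neighbours was tested.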
